A study of Homo sapiens with 12 samples.

Results

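NEAT1 and MALAT1, a pair of long non-coding RNAs that stay in the nucleus, were followed along chromosome 11 in K562, an established human leukaemia cell line. They were chosen by position: every 200-base bin over either gene on the plus strand of hg38, with 10 kb on each side. The NEAT1 span held 114 bins (chromosome 11, 65422801 to 65445600) and the MALAT1 span 45 bins (chromosome 11, 65497601 to 65506600). With the flanks this made 359 of the 15441419 bins counted, and 2 genes beside the 21874 transcriptional units the authors defined. The tested libraries were TT-Seq, in which RNA was sheared by sonication before 4sU-labelled fragments were purified, and 4sU-Seq, purified without shearing. Total RNA-Frag-Seq was sheared and not purified, and Total RNA-Seq was neither sheared nor purified. All RNA came from cells given 500 µM 4-thiouridine (4sU), a uridine analogue built into new RNA, for 5 min, so the unpurified libraries carry labelled RNA as well. ChIP used an antibody against RNA polymerase II phosphorylated at serine 2 (S2P) or the polymerase antibody N-20 (N20), after 7.5 min in 1% formaldehyde. Each of the 6 groups had 2 libraries. The RNA pairs are called biological duplicates in the series' design text. Nothing says so of the ChIP pairs, whose spread may be technical.

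NEAT1 is the scaffold of paraspeckles, nuclear bodies built around the proteins NONO and SFPQ. It is made in a short polyadenylated form and a long form that share a start and a 5′ part, and the long form is the one that paraspeckles require. MALAT1 gathers in nuclear speckles, bodies rich in splicing factors. Both the long NEAT1 form and MALAT1 end without a conventional poly(A) tail: RNase P cuts upstream of a transfer-RNA-like element, which in MALAT1 is released as the small RNA MASCRNA, and a triple helix protects the new 3′ end. Both RNAs are very abundant in many cell types.

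RefSeq (GRCh38.p14) places NEAT1 at 65422798 to 65445540, with the microRNA gene MIR612 inside it at 65444458 to 65444557, and MALAT1 at 65497738 to 65506516. MASCRNA lies at 65506117 to 65506174, and the antisense gene TALAM1 at 65499312 to 65507432. The genes are 52.1 kb apart, both on the plus strand. Below, "first 3.8 kb" means the first 19 bins, close to the length of the short NEAT1 form. In NEAT1 this stretch is shared by both forms and its reads cannot be split between them. Reads after it lie past the short form's length, in the span of the long form. There, long-form RNA and any RNA running on past the short form's end cannot be told apart. In MALAT1 the same cut was used only to compare a 5′ part with the rest.

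The promoter table gave 2 starts for MALAT1, 1307 bases apart. They are shown because RNA and polymerase differed between them. Each line runs from 250 bases before to 50 after the start on the plus strand of GRCh38.p14, and capitals mark GGGCGG on either strand (a GC box, read as CCGCCC on the other strand) or TATAAA (the TATA box).
MALAT1 upstream start, chr11:65497488-65497787: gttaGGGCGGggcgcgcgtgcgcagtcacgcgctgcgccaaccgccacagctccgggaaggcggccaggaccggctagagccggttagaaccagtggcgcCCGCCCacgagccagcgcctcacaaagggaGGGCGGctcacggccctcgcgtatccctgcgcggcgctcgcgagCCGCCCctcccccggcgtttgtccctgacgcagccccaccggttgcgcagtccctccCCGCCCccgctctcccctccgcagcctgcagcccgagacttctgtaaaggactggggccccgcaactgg
MALAT1 downstream start, chr11:65498795-65499094: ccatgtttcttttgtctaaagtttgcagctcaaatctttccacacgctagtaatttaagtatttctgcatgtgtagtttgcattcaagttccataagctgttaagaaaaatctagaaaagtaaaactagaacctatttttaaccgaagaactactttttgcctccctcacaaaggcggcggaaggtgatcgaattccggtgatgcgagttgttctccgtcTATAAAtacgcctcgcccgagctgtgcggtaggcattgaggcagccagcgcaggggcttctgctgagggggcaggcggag
The upstream window held 5 matches to GGGCGG, no TATAAA, and 73.7% G or C with 37 CG dinucleotides. The downstream window held TATAAA on the plus strand at -30 to -25 from the start, no GGGCGG, and 46.0% G or C. Neither held CCAAT or AGATAA on either strand. Of 35116 promoters of the same length, 11.5% hold TATAAA, 45.0% GGGCGG, 34.6% CCAAT and 10.3% AGATAA, and the median G or C content is 58.7%. A match is a description of letters, not a binding site.

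MALAT1 RNA was far denser after the downstream start than before it. Between the starts the plus strand had 2.88 ± 0.106 CPM per kb in TT-Seq, then 4.36 ± 0.153 in 4sU-Seq, against 8.17 ± 0.110 in Total RNA-Frag-Seq, then 8.35 ± 1.09 for Total RNA-Seq (mean ± SD, n = 2; CPM scales each count to the scaled total of its library over units). From the downstream start to MASCRNA it had 458 ± 32.4, 985 ± 133, 1322 ± 42.4 and 1492 ± 31.0 CPM per kb in the same order of groups. That is 159- and 226-fold more than between the starts in TT-Seq and 4sU-Seq, and 162- and 179-fold more in the unpurified groups. The downstream start also held the fullest N20 bin of the MALAT1 region (65499001 to 65499200), with 17.3 and 16.8 CPM, and the bin of the upstream start had 6.36 and 4.92 CPM of N20. Averaged over the stretches, N20 ran the other way from RNA. It had 11.1 ± 2.28 CPM per kb between the starts, against 3.76 ± 0.130 from the downstream start to MASCRNA. These stretches and bins were picked after the values were seen and carry no test.

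Binned counts summed to between 25909021 and 71317148 in the RNA libraries and between 12598494 and 73660126 in the ChIP libraries. All 10 erythroid K562 markers checked were above 1 CPM in every RNA library (summed 638 to 881 CPM, both strands). Of 8 markers of other blood cells, MS4A1, CD14 and MPO stayed under 1 CPM in every library. The sum of these markers was 162 to 200 CPM, of which PTPRC made up 127 to 191 CPM. In a fit across 19338 units and windows, the spread between RNA replicates was a coefficient of variation of 0.0548, against 0.184 in the ChIP fit. Every deposited ChIP count was even, and 38.005 to 41.4% of the filled RNA bins were.

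MALAT1 had the highest count of any transcript in all 8 RNA libraries when ranked by CPM among 21825 units, at 0.353 to 1.07% of all unit counts. Per kb its level was 391 and 354 CPM in TT-Seq, then 867 and 717 CPM in 4sU-Seq, against 1036 and 1084 CPM in Total RNA-Frag-Seq, then 1214 and 1178 CPM for Total RNA-Seq. It ranked 1 per kb in the 4 purified libraries and 2 in the 4 unpurified ones. NEAT1 had 13.3 and 14.1 CPM per kb in TT-Seq, then 26.3 and 25.1 in 4sU-Seq, against 34.6 and 36.7 in Total RNA-Frag-Seq, then 28.2 and 28.4 for Total RNA-Seq. The purified libraries of both genes lay below the unpurified ones. For NEAT1 the gap between 4sU-Seq and Total RNA-Seq was small and was not there without TMM scaling (log2 0.003). How many units show such gaps between libraries was not counted, here or below. NEAT1's rank per kb was 56 and 52 in TT-Seq, 41 and 49 in 4sU-Seq, 46 and 36 in Total RNA-Frag-Seq and 72 in both Total RNA-Seq libraries. By total CPM it ranked 510 and 464 in TT-Seq, against 98 and 90 in Total RNA-Frag-Seq. These are bulk libraries, in which fewer cells holding an RNA and less RNA per cell cannot be told apart.

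TT-Seq versus Total RNA-Frag-Seq asks what is enriched in sheared RNA when fragments made during the 5 min are purified. Both RNAs were depleted, most of all in their 3′ parts. Over the whole span NEAT1 was 2.60-fold lower in TT-Seq (log2 -1.38 ± 0.05 SE, adjusted p = 3.20e-12, edgeR quasi-likelihood) and MALAT1 2.84-fold lower (-1.51 ± 0.08, adjusted p = 1.23e-09). A call alone says little here, since 81.0% of all rows tested were called in this comparison, 43.2% as higher and 37.8% as lower. The median of all units was 0.09, that of the mRNA class -0.34 and that of the lincRNA class -0.12. Of the units tested, 5.89% lay below NEAT1 and 4.28% below MALAT1.

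The stretch of NEAT1 past the short form's length, after 3.8 kb, had 5.96 and 6.31 CPM per kb in TT-Seq, against 25.9 and 27.0 in Total RNA-Frag-Seq. The groups lay far apart, a 4.31-fold difference (log2 -2.11 ± 0.06, adjusted p = 1.63e-13, edgeR). Of units counted whole, 165 of 19316, and 2 of 296 lincRNA units, were lower, which sets a 3′ part against wholes. In the difference of the ratio of the 2 parts, described below, 1094 of 11609 units lay below NEAT1. The first 3.8 kb had 49.97 and 52.8 CPM per kb in TT-Seq, against 77.8 and 85.1 in Total RNA-Frag-Seq, which is 1.59-fold lower (-0.66 ± 0.06, adjusted p = 1.83e-08). In MALAT1 the stretch after 3.8 kb had 180 and 179 CPM per kb in TT-Seq, against 949 and 973 in Total RNA-Frag-Seq. It was 5.35-fold lower (-2.42 ± 0.06, adjusted p = 1.06e-13), with 78 whole units lower still, against 947 of 11609 units in the difference of the ratio. The first 3.8 kb of MALAT1 had 680.0 and 593 CPM per kb in TT-Seq, against 1156 and 1235 in Total RNA-Frag-Seq, a 1.88-fold difference (-0.91 ± 0.10, adjusted p = 9.28e-06). Without TMM scaling the first 3.8 kb stood at -0.32 in NEAT1 and -0.56 in MALAT1, both still called.

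**Figure D1:**
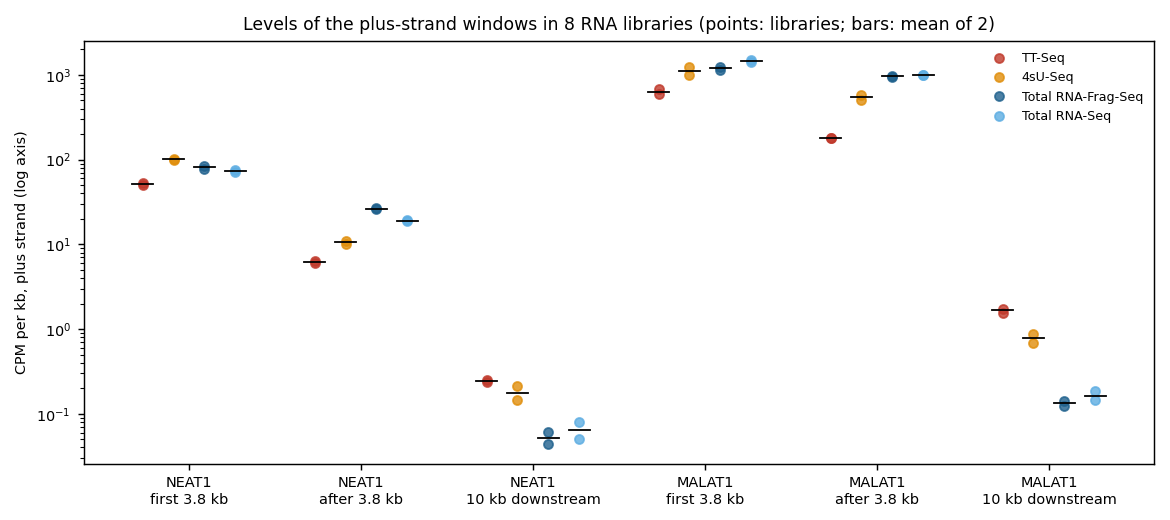
Level of each plus-strand window in CPM per kb on a log axis, by gene and window, with a point for each of the 2 libraries of a group and a bar at their mean. After 3.8 kb both TT-Seq points lie below those of the other groups, while in the 10 kb downstream of either gene the TT-Seq points are the highest.

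4sU-Seq against Total RNA-Seq makes the same comparison on unsheared RNA, and here the 5′ and 3′ parts of NEAT1 went opposite ways. The first 3.8 kb had 103 and 99.8 CPM per kb in 4sU-Seq, against 76.3 and 72.4 in Total RNA-Seq (1.36-fold higher, log2 0.45 ± 0.06, adjusted p = 4.59e-06, edgeR). After 3.8 kb there were 11.01 and 10.2 CPM per kb in 4sU-Seq, against 18.6 and 19.6 in Total RNA-Seq (1.81-fold lower, -0.85 ± 0.06, adjusted p = 5.08e-09). The whole span was 1.10-fold lower (-0.14 ± 0.05, adjusted p = 0.0224), a call that ended when 4sU-Seq replicate 2 (-0.11, adjusted p = 0.0977) or Total RNA-Seq replicate 2 (-0.14, adjusted p = 0.0820) was left out, and its value doubled to -0.28 without Total RNA-Seq replicate 1. In this comparison 68.4% of rows were called, 40.2% as higher and 28.2% as lower, and the median unit stood at 0.19.

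MALAT1 fell in 4sU-Seq in both parts. After 3.8 kb it had 586 and 509.6 CPM per kb in 4sU-Seq, against 1002 and 986 in Total RNA-Seq (1.81-fold lower, -0.86 ± 0.06, adjusted p = 7.98e-09). Its first 3.8 kb had 1252 and 1000.9 CPM per kb in 4sU-Seq, against 1504 and 1441 in Total RNA-Seq (1.31-fold lower, -0.39 ± 0.10, adjusted p = 0.00541). That smaller difference was -0.24 without 4sU-Seq replicate 2, where the call held. The whole span was lower by log2 -0.59 ± 0.08 (adjusted p = 2.14e-05), below which lay 11.4% of units.

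The ratio of the stretch after 3.8 kb to the first 3.8 kb, both per bin, describes the fall along each RNA within a library. In NEAT1 it was 0.120 in both TT-Seq libraries and 0.108 and 0.102 in 4sU-Seq, against 0.333 and 0.318 in Total RNA-Frag-Seq, then 0.245 and 0.272 for Total RNA-Seq. The purified and unpurified libraries did not overlap. The ratio was lower with TT-Seq than Total RNA-Frag-Seq (log2 difference -1.44 ± 0.13 SE, adjusted p = 6.82e-06, limma) and in 4sU-Seq than in Total RNA-Seq (-1.30 ± 0.13, adjusted p = 3.45e-05). The background was 65.9% of rows called in the sheared pair and 56.4% in the unsheared pair. Among 6192 annotated RefSeq genes, 0.517% and 0.581% had a lower ratio than NEAT1 in the TT-Seq libraries, where the median gene stood at 0.876 and 0.863. The difference between purified and unpurified RNA was less unusual. Its median over these genes was -0.35 in the sheared and -0.34 in the unsheared pair, and 10.9% and 7.74% of genes lay below NEAT1. With a first part of 3 kb in place of 3.8 kb the unsheared difference was -0.65, still called.

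MALAT1 had a ratio of 0.265 and 0.302 in TT-Seq, then 0.468 and 0.509 in 4sU-Seq, against 0.821 and 0.788 in Total RNA-Frag-Seq, then 0.666 and 0.684 for Total RNA-Seq. The 4 groups were separate. The sheared difference was -1.51 ± 0.12 (adjusted p = 2.92e-06, limma) and the unsheared one -0.47 ± 0.12 (adjusted p = 0.00690), and the test of their difference gave -1.04 ± 0.17 (adjusted p = 0.00567, with 17.9% of rows called). The unsheared call ended without 4sU-Seq replicate 1 (-0.41, adjusted p = 0.0508). Of the annotated genes, 9.51% had a lower sheared difference than MALAT1 and 42.8% a lower unsheared one, so the unsheared fall was near that of the median gene (-0.34). For NEAT1 the same test of the difference gave -0.14 ± 0.19 (adjusted p = 0.634). TT-Seq against 4sU-Seq gave -0.79 ± 0.12 for the MALAT1 ratio (adjusted p = 0.000645) and 0.19 ± 0.13 for the NEAT1 ratio (adjusted p = 0.263), with 43.9% of rows called. Total RNA-Frag-Seq differed from Total RNA-Seq in neither gene past the threshold (0.33 ± 0.13 for NEAT1, adjusted p = 0.177, and 0.25 ± 0.12 for MALAT1, adjusted p = 0.252), with 3.21% called.

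**Figure D2:**
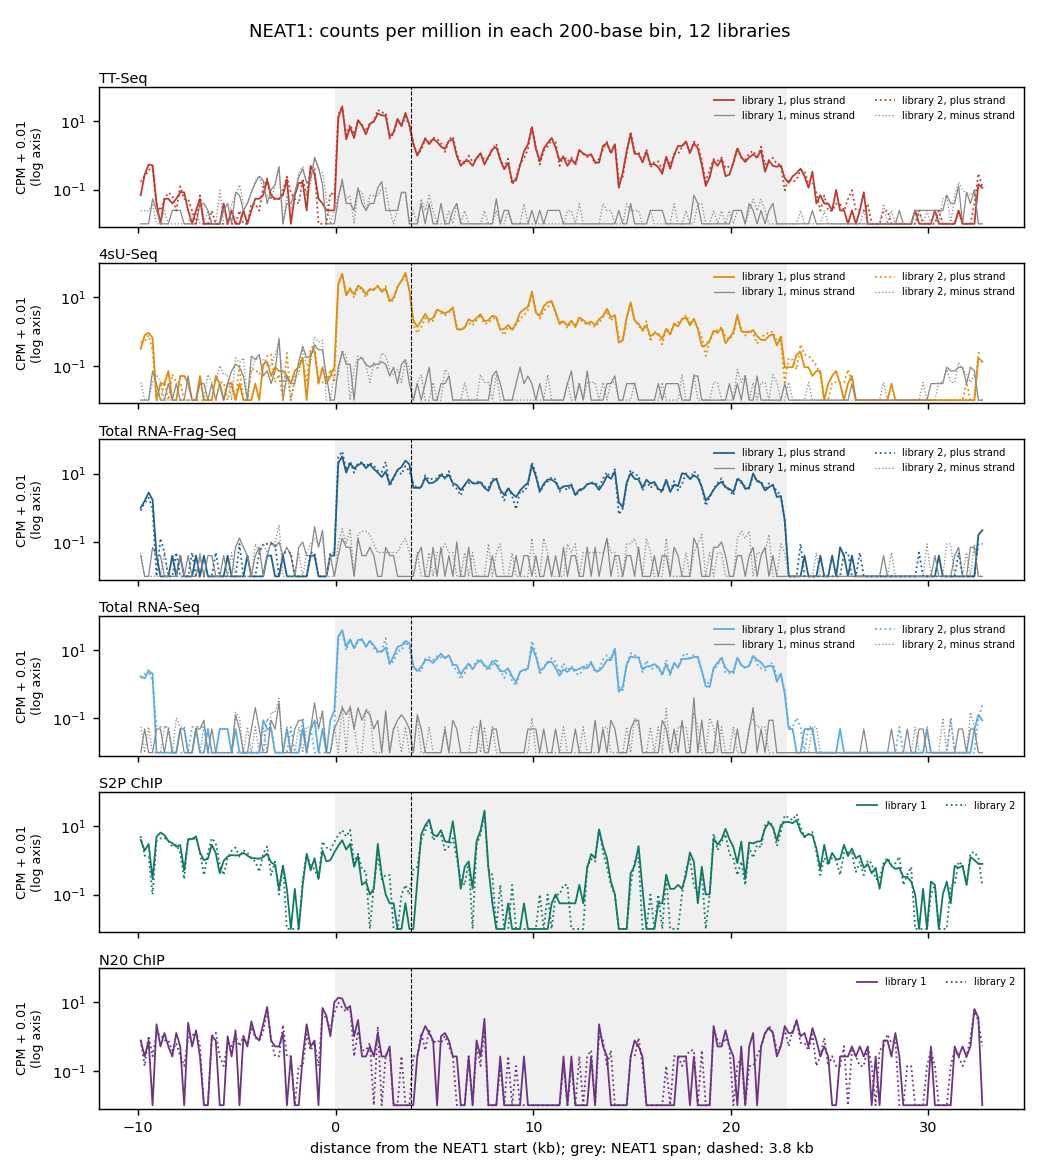
CPM in each 200-base bin along NEAT1 and 10 kb on each side, on log axes with a small constant added, against distance from the start in kb, with a panel for each group, colour for the plus strand (or unstranded ChIP), grey for the minus strand and solid and dotted lines for the 2 libraries. Plus-strand signal drops past 3.8 kb in the purified libraries more than in the unpurified ones, and it runs past the gene's end in TT-Seq and 4sU-Seq.

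Along NEAT1 in steps of 1 kb, the plus strand had 52.2 and 56.5 CPM in the first kb of TT-Seq, against 97.0 and 121 in Total RNA-Frag-Seq. At 4 to 5 kb it had 10.9 and 11.1 CPM in TT-Seq, against 26.1 and 30.3 in Total RNA-Frag-Seq. The step past the short form's length was present in every library. Within the first 3.8 kb the ratio of purified to unpurified RNA went up with distance from the start, by log2 0.37 per kb for TT-Seq over Total RNA-Frag-Seq and 0.40 for 4sU-Seq over Total RNA-Seq (18 bins, a description). From 2 to 3 kb TT-Seq stood at 1.18 times Total RNA-Frag-Seq, and from 3 to 4 kb 4sU-Seq stood at 2.05 times Total RNA-Seq. After 3.8 kb the ratio went down over 91 bins, by 0.047 per kb for TT-Seq over Total RNA-Frag-Seq (Spearman rho -0.40) and by 0.093 for 4sU-Seq over Total RNA-Seq (rho -0.63). The bins share libraries and neighbours and are not independent.

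MALAT1 showed a steeper slope. From the downstream start to MASCRNA, over 35 bins, the log2 ratio of TT-Seq to Total RNA-Frag-Seq changed by -0.38 per kb (-0.41 and -0.35 in the 2 library pairs, rho -0.83), and that of 4sU-Seq to Total RNA-Seq by -0.15 per kb (rho -0.63). TT-Seq stood at 0.805 times Total RNA-Frag-Seq at 1 to 2 kb from the span's start, at 0.253 times at 4 to 5 kb and at 0.131 times at 7 to 8 kb. The most depleted bin, 6.81 kb from the start, was 10.9-fold lower in TT-Seq. 4sU-Seq over Total RNA-Seq was 0.913 at 1 to 2 kb and 0.417 at 7 to 8 kb.

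**Figure D3:**
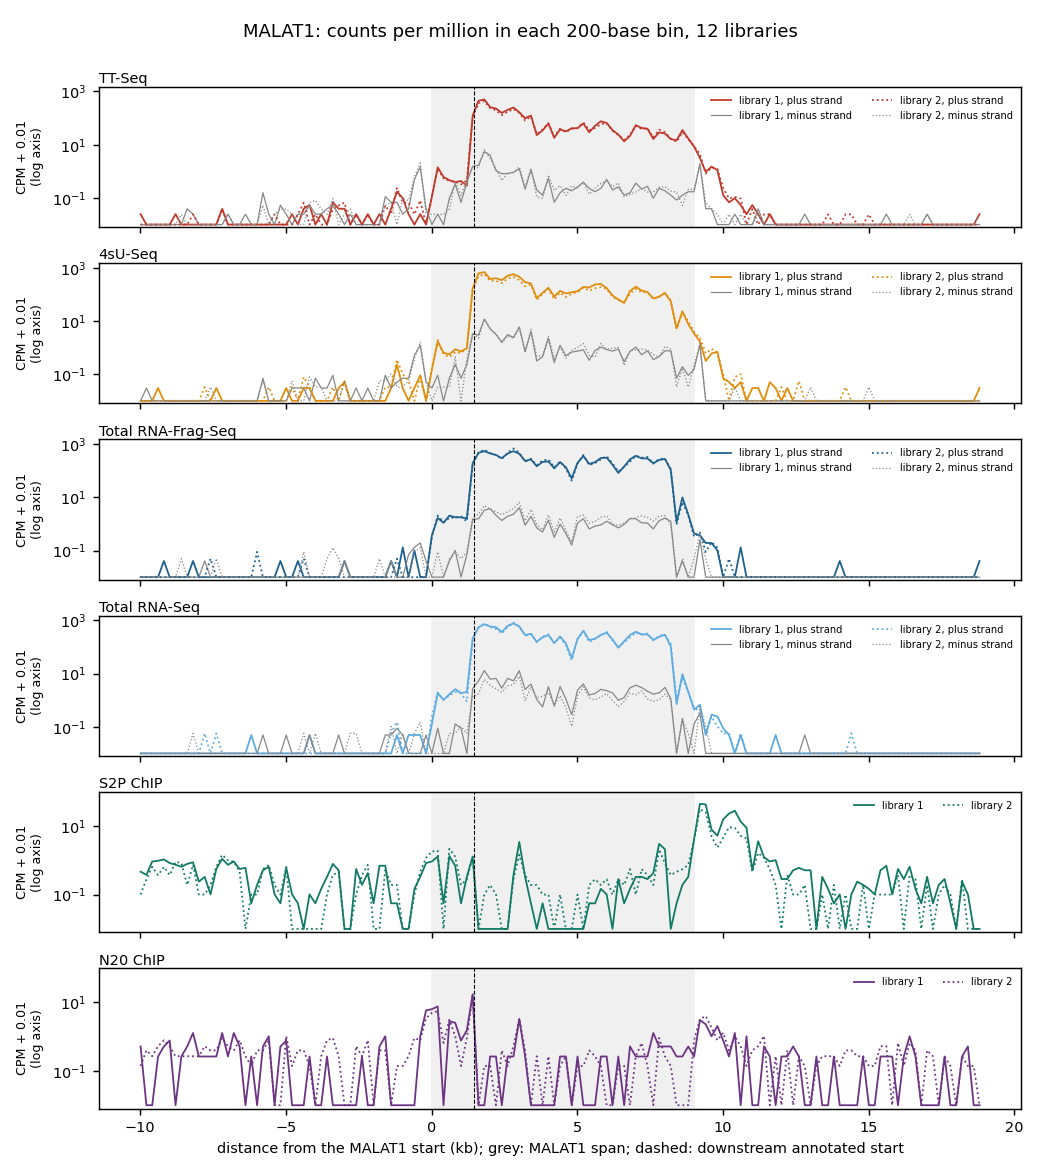
CPM in each 200-base bin along MALAT1 and 10 kb on each side, drawn as for NEAT1, with a dashed line at the downstream annotated start. Plus-strand signal climbs at the dashed line in all RNA groups, N20 peaks there, and S2P peaks just past the annotated end.

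**Figure D4:**
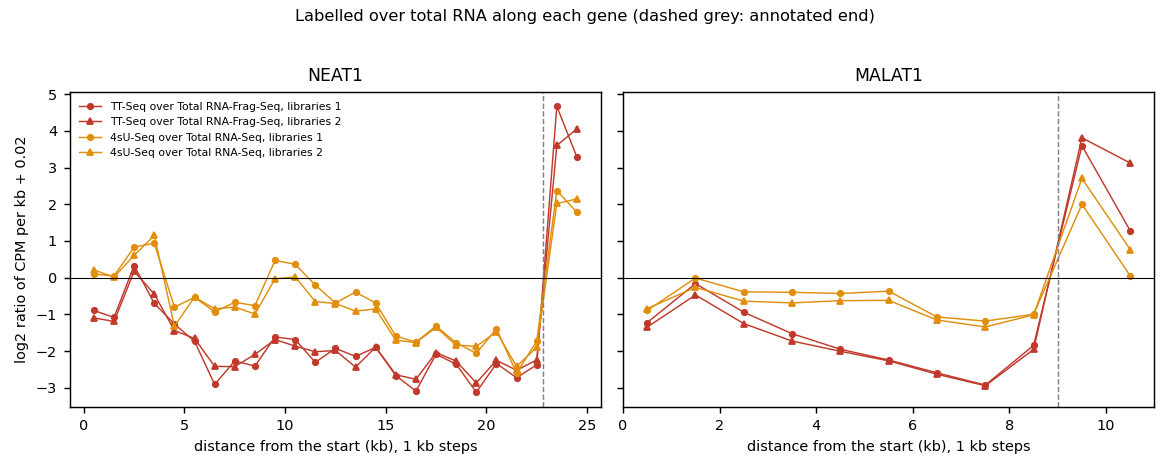
Log2 ratio of CPM per kb, purified over unpurified, in steps of 1 kb from the start of each gene, with red for TT-Seq over Total RNA-Frag-Seq, orange for 4sU-Seq over Total RNA-Seq and circles and triangles for libraries of the same number. Ratios go down along MALAT1 and along the long part of NEAT1 and turn strongly positive past the annotated end (dashed).

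Past the 3′ ends the picture turned round, and RNA was enriched in the purified libraries. At 7 to 8 kb from the start, ahead of MASCRNA, MALAT1 had 181 and 188 CPM per kb in TT-Seq, then 609 and 554 in 4sU-Seq, against 1381 and 1451 in Total RNA-Frag-Seq, then 1385 and 1405 for Total RNA-Seq. The pair of bins after MASCRNA (65506201 to 65506600), which hold none of it and reach just past the annotated end, had 123 ± 12.3 CPM per kb in TT-Seq, then 78.3 ± 2.102 in 4sU-Seq, against 26.0 ± 6.06 in Total RNA-Frag-Seq, then 25.4 ± 4.81 for Total RNA-Seq. Across MASCRNA the order of the groups thus turned round, with TT-Seq lowest ahead of it and highest after it. In the 1 kb after the annotated end the level was 16.1 ± 1.15 in TT-Seq, then 7.46 ± 1.19 in 4sU-Seq, against 1.21 ± 0.0428 in Total RNA-Frag-Seq, then 1.45 ± 0.271 for Total RNA-Seq. From 1 to 4 kb past the end TT-Seq had 0.158 ± 0.0374 CPM per kb and Total RNA-Frag-Seq 0.0268 ± 0.0193. NEAT1's last kb had 2.52 ± 0.271 CPM per kb in TT-Seq, then 2.87 ± 0.181 in 4sU-Seq, against 14.5 ± 1.61 in Total RNA-Frag-Seq, then 11.2 ± 1.11 for Total RNA-Seq. The kb after its end had 1.28 ± 0.0383 in TT-Seq, then 0.837 ± 0.207 in 4sU-Seq, against 0.0546 ± 0.0344 in Total RNA-Frag-Seq, then 0.175 ± 0.0819 for Total RNA-Seq (all mean ± SD, n = 2). These stretches were also picked after the values were seen.

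Over the fixed 10 kb downstream, MALAT1's plus strand had 1.57 and 1.75 CPM per kb in TT-Seq, against 0.143 and 0.122 in Total RNA-Frag-Seq. It was 12.4-fold higher (log2 3.63 ± 0.17, adjusted p = 2.11e-11, edgeR). In 4sU-Seq it had 0.693 and 0.865 CPM per kb, against 0.184 and 0.145 in Total RNA-Seq (4.68-fold higher, 2.23 ± 0.18, adjusted p = 4.89e-08). TT-Seq was also above 4sU-Seq there (1.09 ± 0.12, adjusted p = 9.53e-07, with 48.4% of rows called), and 3.59% of whole units were higher than MALAT1's flank in TT-Seq versus Total RNA-Frag-Seq. NEAT1's downstream flank had 0.239 and 0.247 CPM per kb in TT-Seq, against 0.0607 and 0.0434 in Total RNA-Frag-Seq (4.56-fold higher, 2.19 ± 0.27, adjusted p = 2.00e-06). In 4sU-Seq it had 0.144 and 0.211, against 0.0508 and 0.0793 in Total RNA-Seq (2.75-fold higher, 1.46 ± 0.30, adjusted p = 0.000557). The unpurified values rest on 11 to 20 counts per library in the NEAT1 flank and 31 to 47 in the MALAT1 flank.

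The ratio of the 4 kb downstream to the last 4 kb, per bin, was 0.169 and 0.133 for NEAT1 in TT-Seq, then 0.0757 and 0.105 in 4sU-Seq, against 0.00605 and 0.00663 in Total RNA-Frag-Seq, then 0.00934 and 0.0122 for Total RNA-Seq. For MALAT1 it was 0.0222 and 0.0251 in TT-Seq, then 0.00308 and 0.00439 in 4sU-Seq, against 0.000419 and 0.000401 in Total RNA-Frag-Seq, then 0.000539 and 0.000458 for Total RNA-Seq. Every purified library was above every unpurified one for both genes. These ratios carry a pseudocount of 0.5 per bin, 10 counts over the stretch, while NEAT1's downstream stretch held only 7 and 5 counts in Total RNA-Frag-Seq, then 6 and 7 for Total RNA-Seq, so most of its printed unpurified ratio is pseudocount. Without it the NEAT1 ratio was 0.160 and 0.125 in TT-Seq, against 0.00250 and 0.00222 in Total RNA-Frag-Seq. The MALAT1 stretch held 45 and 31 counts in Total RNA-Frag-Seq, then 47 and 30 for Total RNA-Seq. The log2 difference of TT-Seq versus Total RNA-Frag-Seq was 4.57 ± 0.31 for NEAT1 (adjusted p = 1.18e-27, limma) and 5.85 ± 0.32 for MALAT1 (adjusted p = 8.28e-38), where 58.2% of rows were called. That of 4sU-Seq against Total RNA-Seq was 3.06 ± 0.31 (adjusted p = 3.26e-15) and 2.89 ± 0.32 (adjusted p = 1.12e-13), where 32.3% were called. TT-Seq exceeded 4sU-Seq for MALAT1 (2.68 ± 0.32, adjusted p = 4.28e-11) and missed the threshold for NEAT1 (0.75 ± 0.31, adjusted p = 0.0561), with 30.0% called. The interaction was 1.51 ± 0.44 for NEAT1 (adjusted p = 0.0215) and 2.96 ± 0.45 for MALAT1 (adjusted p = 2.22e-06), with 8.41% called. The NEAT1 interaction lost its call without TT-Seq replicate 1 (1.33, adjusted p = 0.138), 4sU-Seq replicate 1 (1.27, adjusted p = 0.146) or replicate 2 (1.74, adjusted p = 0.0505), or Total RNA-Seq replicate 2 (1.31, adjusted p = 0.116). Without purification 0.0241% of rows were called and neither gene was (-0.75 for NEAT1, adjusted p = 0.690, and -0.28 for MALAT1, adjusted p = 0.981).

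Because the authors drew unit ends from TT-Seq itself, many units already include RNA past an annotated end, so the ratio was also set beside 6197 RefSeq genes cut at their annotated ends. In that fit, chosen after the data were seen, 84.7% of genes were called for TT-Seq versus Total RNA-Frag-Seq and the median difference was 1.70. NEAT1's difference (adjusted p = 5.48e-09, limma) was exceeded by 15 genes and MALAT1's (adjusted p = 3.21e-09) by 0. The differences are those given above, so their far smaller adjusted p beside the units depends on the rows fitted with them. For 4sU-Seq against Total RNA-Seq, 56.5% were called and the median was 0.63. There 6 genes exceeded NEAT1 (adjusted p = 1.75e-06, limma) and 20 exceeded MALAT1 (adjusted p = 2.08e-06). The pseudocount limits the difference that a gene with few counts can reach, NEAT1 included, so the rank favours abundant RNAs.

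**Figure D5:**
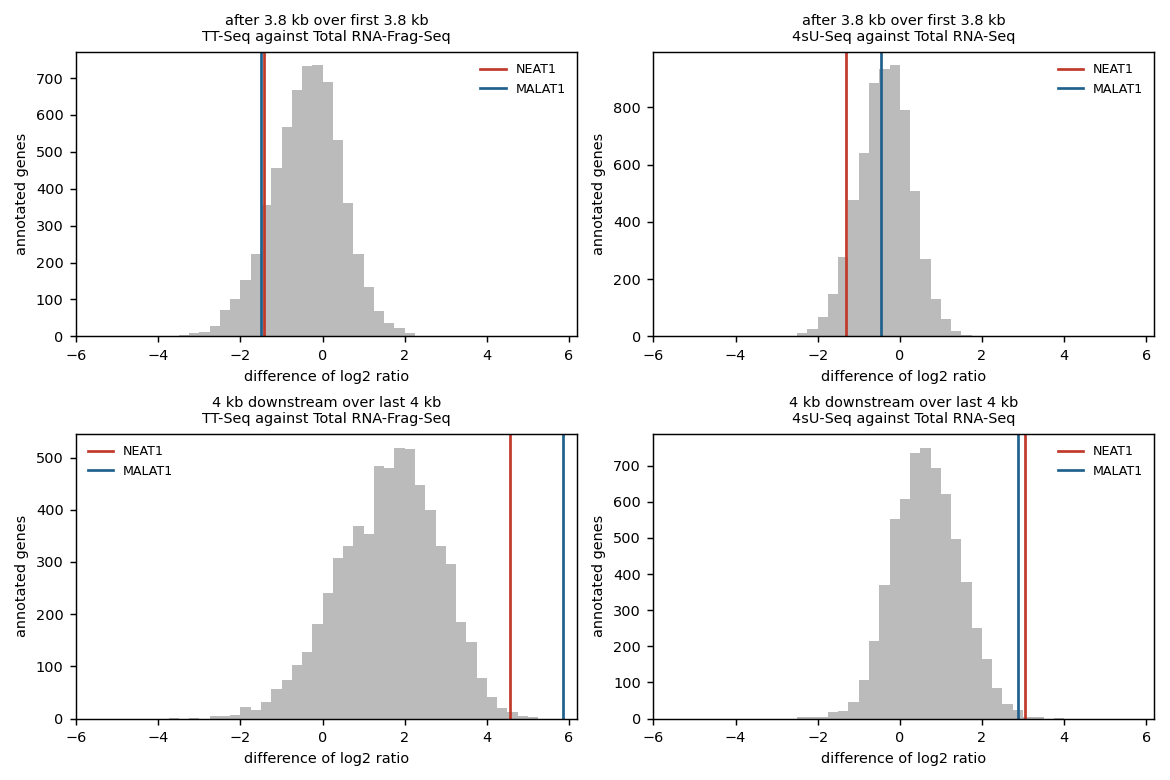
Histograms over annotated genes of the log2 difference in ratio between purified and unpurified libraries, above for the stretch after 3.8 kb over the first 3.8 kb and below for the 4 kb downstream over the last 4 kb, with the sheared pair left and the unsheared pair right. Lines mark NEAT1 (red) and MALAT1 (blue), which lie in the right tail of the lower panels.

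Upstream of both genes the minus strand was higher in the purified libraries, while the plus strand summed over 10 kb differed between the genes. The 10 kb before MALAT1 had 0.273 and 0.340 CPM per kb of minus-strand RNA in TT-Seq, against 0.0486 and 0.0592 in Total RNA-Frag-Seq (5.73-fold higher, log2 2.52 ± 0.24, adjusted p = 9.52e-08, edgeR). In 4sU-Seq it had 0.238 and 0.256, against 0.0391 and 0.0560 in Total RNA-Seq (2.39 ± 0.28, adjusted p = 2.39e-06), or 1.40 without the window's fullest bin. Most of it lay near the start: the kb before the upstream start had 2.38 ± 0.550 CPM in TT-Seq, then 1.94 ± 0.164 in 4sU-Seq, against 0.296 ± 0.140 in Total RNA-Frag-Seq, then 0.113 ± 0.104 for Total RNA-Seq. Before NEAT1 the minus strand had 0.422 and 0.446 CPM per kb in TT-Seq, against 0.188 and 0.134 in Total RNA-Frag-Seq (2.65-fold higher, 1.40 ± 0.18, adjusted p = 3.05e-06). In 4sU-Seq it had 0.382 and 0.469 CPM per kb, against 0.196 in both Total RNA-Seq libraries (1.12 ± 0.19, adjusted p = 0.000103). In the stretch 1 to 4 kb before NEAT1 both strands carried RNA, at 1.01 ± 0.00859 CPM per kb on the minus and 0.628 ± 0.0373 on the plus strand in TT-Seq. Total RNA-Frag-Seq had 0.308 ± 0.00784 on the minus and 0.117 ± 0.0945 on the plus strand there. On the plus strand 4sU-Seq had 0.518 ± 0.110, against 0.113 ± 0.00601 in Total RNA-Seq. These values carry no test. The first kb of the NEAT1 upstream flank holds the 3′ end of FRMD8, a coding gene on the plus strand.

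On the plus strand, the 10 kb before NEAT1 had 0.380 and 0.390 CPM per kb in TT-Seq, against 0.750 and 0.612 in Total RNA-Frag-Seq (log2 -0.83 ± 0.13, adjusted p = 2.46e-05, edgeR). The difference was -0.49 without TMM scaling and -0.38 without the window's fullest bin, both still called. In 4sU-Seq there were 0.459 and 0.439 CPM per kb, against 0.849 and 0.784 in Total RNA-Seq (-0.86 ± 0.13, adjusted p = 4.34e-05). This 10 kb window includes the end of FRMD8, while 1 to 4 kb before the start the plus strand was higher in both purified groups. Whether FRMD8 RNA sets the value of the window was not tested. Before MALAT1 the plus strand held few counts, 43 and 55 in TT-Seq, then 26 and 36 in 4sU-Seq, against 13 and 5 in Total RNA-Frag-Seq and 6 in both Total RNA-Seq libraries. It was higher in TT-Seq than Total RNA-Frag-Seq by 1.19 ± 0.38 (adjusted p = 0.00933) and in 4sU-Seq than Total RNA-Seq by 1.38 ± 0.45 (adjusted p = 0.0137). The first call ended without the fullest bin (0.81, adjusted p = 0.0812), with DESeq2 (1.21, adjusted p = 0.0541) or without Total RNA-Frag-Seq replicate 2 (0.80, adjusted p = 0.0967), and without replicate 1 the value was 1.82. The other ended without the fullest bin (1.18, adjusted p = 0.0731), with DESeq2 (1.25, adjusted p = 0.0833), without 4sU-Seq replicate 2 (1.04, adjusted p = 0.0867) or without Total RNA-Seq replicate 1 (1.11, adjusted p = 0.127).

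The minus strand after MALAT1, where TALAM1 begins, had 0.221 and 0.233 CPM per kb over 10 kb in TT-Seq, against 0.0243 and 0.0513 in Total RNA-Frag-Seq (6.24-fold higher, log2 2.64 ± 0.29, adjusted p = 4.39e-07, edgeR). In 4sU-Seq it had 0.142 and 0.169, against 0.0469 and 0.0653 in Total RNA-Seq (1.48 ± 0.30, adjusted p = 0.000531), and that call was lost without the fullest bin (0.67, adjusted p = 0.413). The first kb of TALAM1 had 2.36 ± 0.101 CPM in TT-Seq, then 1.58 ± 0.102 in 4sU-Seq, against 0.378 ± 0.191 in Total RNA-Frag-Seq, then 0.565 ± 0.191 for Total RNA-Seq. Inside the genes the minus strand held 0.346 to 0.652% of counts in NEAT1 and 0.512 to 1.05% in MALAT1. The median of well covered units was 0.456 to 0.901%, so antisense RNA over either body was not told apart from the usual share on the other strand.

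Shearing was compared within purified and within unpurified RNA. TT-Seq was below 4sU-Seq over the whole span of NEAT1 (log2 -0.91 ± 0.05, adjusted p = 1.79e-09, edgeR) and MALAT1 (-1.09 ± 0.08, adjusted p = 9.86e-08). The deepest difference was MALAT1 after 3.8 kb, at 180 and 179 CPM per kb in TT-Seq against 586 and 509.6 in 4sU-Seq (-1.61 ± 0.06, adjusted p = 4.88e-11). Without purification the differences were small, and 22.1% of rows were called. NEAT1 was 1.26-fold higher in Total RNA-Frag-Seq than in Total RNA-Seq (0.33 ± 0.05, adjusted p = 0.000163), a call that ended without Total RNA-Frag-Seq replicate 2 (0.17, adjusted p = 0.0955) or Total RNA-Seq replicate 1 (0.21, adjusted p = 0.0766). NEAT1 after 3.8 kb was higher by 0.47 ± 0.05 (adjusted p = 1.65e-05). MALAT1 did not pass the threshold (-0.17 ± 0.08, adjusted p = 0.131), though it passed under other scalings.

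The interaction asks whether purification changed a window more in sheared than in unsheared RNA, and 34.6% of rows were called. It was -1.24 ± 0.07 for the whole NEAT1 span (adjusted p = 1.05e-08, edgeR), -1.11 ± 0.08 for its first 3.8 kb and -1.25 ± 0.08 for the rest. In MALAT1 it was -0.91 ± 0.11 for the whole span (adjusted p = 2.38e-05), -1.56 ± 0.08 after 3.8 kb (adjusted p = 4.30e-09) and -0.52 ± 0.14 for the first 3.8 kb (adjusted p = 0.0133). The last of these lost its call without TT-Seq replicate 2 (-0.30, adjusted p = 0.143), Total RNA-Frag-Seq replicate 1 (-0.57, adjusted p = 0.0791) or replicate 2 (-0.37, adjusted p = 0.252), or Total RNA-Seq replicate 1 (-0.45, adjusted p = 0.0804). MALAT1's downstream flank went the other way, at 1.40 ± 0.28 (adjusted p = 0.000839).

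In ChIP the pair differed in where the polymerase signal lay. The series holds no input library, so S2P and N20 values are relative to the units and are not amounts of polymerase. S2P over the long part of NEAT1, after 3.8 kb, had 12.8 and 10.7 CPM per kb, against 1.89 and 1.62 in N20. This was 6.71-fold higher (log2 2.75 ± 0.17, adjusted p = 5.29e-07, edgeR), where 40.9% of rows were called and 0.0696% of units were higher. Units were counted whole, start included, so this rank sets a part without its start against wholes. Over the whole NEAT1 span S2P had 11.4 and 10.3 CPM per kb, against 3.71 and 2.92 in N20 (1.72 ± 0.17, adjusted p = 3.00e-06), or 1.09 without TMM scaling. In the 2 kb around the start S2P had 9.06 and 19.2 CPM per kb, against 32.1 and 22.3 in N20 (-0.95 ± 0.35, adjusted p = 0.0597), which missed the threshold. N20 over NEAT1 was fullest in the bin at the start (13.7 and 9.71 CPM), and S2P in a bin 7.53 kb into the gene (28.5 and 25.03 CPM). Downstream of NEAT1, S2P had 9.69 and 11.05 CPM per kb over 10 kb, against 3.08 and 2.77 in N20 (1.83 ± 0.18, adjusted p = 3.52e-06), or 1.20 without TMM scaling. Another bin with N20 signal stood at -3.47 kb from the NEAT1 start (7.38 and 6.09 CPM), in the stretch with RNA on both strands.

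Over the whole MALAT1 span and its first part S2P was below N20, and past its end far above it. S2P over the whole span had 2.00 and 2.25 CPM per kb, against 5.57 and 4.75 in N20 (log2 -1.28 ± 0.22, adjusted p = 0.000425, edgeR), with the gap in the first 3.8 kb (-1.91 ± 0.24, adjusted p = 3.02e-05) and around the upstream start (-1.71 ± 0.31, adjusted p = 0.000635). After 3.8 kb the mean was 1.58 CPM per kb in S2P against 1.05 in N20, which was not called (0.62 ± 0.32, adjusted p = 0.141, edgeR). In the 35 bins between the downstream start and MASCRNA the median count was 2 and 4 in S2P, against 2 in both N20 libraries, where the median unit bin held 0 in all 4 libraries. Past the annotated end S2P was high: the next kb had 86.7 ± 26.1 CPM in S2P, against 9.64 ± 1.39 in N20 (mean ± SD, n = 2, picked after the values were seen). Its fullest bin lay 0.38 kb past the end (65506801 to 65507000), at 44.8 and 31.4 CPM in S2P, and only 278 and 896 of all bins held more. This bin lies in TALAM1 and was also the fullest of the flank for minus-strand TT-Seq RNA (1.91 and 1.95 CPM). ChIP counts have no strand, so its S2P signal cannot be assigned to either gene. Over 10 kb downstream S2P had 21.1 and 10.8 CPM per kb, against 1.81 and 2.40 in N20 (7.53-fold higher, 2.91 ± 0.34, adjusted p = 0.000514), and 0.0547% of units were higher. That rank sets a flank past a gene's end against whole units, starts included.

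For NEAT1 the density in the 2 kb around the start over that of the body was 0.796 and 1.99 in S2P, against 14.3 and 12.2 in N20. Of 13914 units, 26.0 and 41.8% had a lower value in S2P, against 91.1 and 81.8% in N20. The same measure is not given for MALAT1, whose fullest N20 bin, at the downstream start, would count as body.

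In the authors' deposited table the unit holding MALAT1 (chromosome 11, 65492894 to 65509395, plus strand, lincRNA) has a decay rate of 0.00109, lower than all but 1078 of 20241 units and all but 18 of 302 lincRNA units. In the authors' deposited table the unit holding NEAT1 (65418508 to 65449813, plus strand, lincRNA) has a decay rate of 0.00935, with 81 lincRNA units lower. The median decay rate in the authors' deposited table is 0.0448. The synthesis rates in the authors' deposited table are 0.00206 for the MALAT1 unit and 0.00574 for the NEAT1 unit. Among all units these lie at percentiles 23.4 and 54.3 in the authors' deposited table, where the median is 0.00508. These rates have no unit in the sources used here, and they were made from the same libraries. Their order is the reverse of that by TT-Seq CPM per kb, where MALAT1 was above NEAT1. Why the orders differ was not tested. In the authors' deposited table the minus-strand unit over MALAT1 (65496071 to 65507660) has a decay rate of 0.00533 and an eRNA unit across the NEAT1 start on the minus strand (65415504 to 65428927) 0.0489.

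Most tested genes of paraspeckles and nuclear speckles were lower in TT-Seq, as NEAT1 and MALAT1 were. Of 34 paraspeckle genes, 24 had a unit of their own, and in TT-Seq versus Total RNA-Frag-Seq 0 were higher, 21 lower and 3 not called (median log2 -0.74, against 0.09 over all units). Over all rows tested 43.2% were higher and 37.8% lower. Of 38 nuclear speckle genes, 32 had a unit, with 5 higher, 21 lower and 6 not called (median -0.51). Of 31 genes of 3′ end and RNase P processing, 26 had a unit, with 7 higher, 11 lower and 8 not called (median -0.10), a share of lower calls close to that of all rows. In 4sU-Seq against Total RNA-Seq the same lists gave 1 higher and 22 lower, 5 higher and 22 lower, and 4 higher and 16 lower, where 40.2% of all rows were higher and 28.2% lower. Most members are coding genes, whose class also had a median below 0, so nothing particular to these lists is read from the counts.

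Among them, NONO, the paraspeckle protein that binds NEAT1, had 81.8 ± 4.06 CPM in TT-Seq against 274 ± 25.7 in Total RNA-Frag-Seq (log2 -1.75 ± 0.06, adjusted p = 2.83e-12, edgeR). SRRM2, a scaffold of nuclear speckles, was the lowest of the 3 lists, at 210.5 ± 23.6 CPM in TT-Seq against 1192 ± 71.2 in Total RNA-Frag-Seq (-2.50 ± 0.09, adjusted p = 1.08e-10). The spliceosome core protein PRPF8 (-1.97) and the Integrator nuclease INTS11 (-1.93) followed. The splicing factor SRSF1 fell by 1.23, the speckle scaffold SON by 0.94 and ELAC2, the transfer RNA 3′ nuclease that trims MASCRNA, by 0.70 on the log2 scale. Highest were the splicing factors CDC5L (0.79) and BCLAF1 (0.54) and METTL16 (0.65), a methyltransferase known to bind the MALAT1 triple helix. SFPQ had no unit of its own name.

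The named units whose levels ran most like NEAT1's across the 8 RNA libraries, by Euclidean distance of log2 CPM centred on each unit's mean, were GAK (0.0881), PAX8-AS1 (0.107), CCDC57 (0.183), PTPRF (0.190) and LOC105376958 (0.192), where the median over 7597 units was 1.25. For MALAT1 they were RNF113A (0.235), CETN2 (0.298), PSME3 (0.308), TMEM147-AS1 (0.315) and FOXL2NB (0.316), with a median of 1.60. The units named RNF113A, PSME3 and TMEM147-AS1 are not in the mRNA class. NEAT1 and MALAT1 lay 0.711 apart, with 792 units nearer to NEAT1 and 785 nearer to MALAT1.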

How the data were processed

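The authors deposited counts in 200-base bins, stranded only for RNA, and a table of transcriptional units with synthesis and decay rates, with no unit stated. The submitters' processing notes name SAMtools, Bowtie2 2.1.0, STAR 2.3.0 and hg38 without a role for each. How reads with several genomic matches were handled was not stated. The exon and intron tables were not used here.

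Deposited counts were summed over each unit on its own strand and over the NEAT1 and MALAT1 windows. They were scaled by TMM over units (factors 0.873 to 1.113 for RNA, 0.798 to 1.272 for ChIP) and compared by robust quasi-likelihood fits (edgeR 4.0.16, R 4.3.3). RNA fits used all 8 libraries and the ChIP fit its 4, with Benjamini-Hochberg adjustment over all rows at 0.05. Filtering kept 19318 RNA units and 20125 ChIP units, and every member window passed. Log2 ratios along transcripts, with a pseudocount of 0.5 per bin, were tested with limma 3.58.1. DESeq2 1.42.0 was an alternative. Scripts were tested on simulated data. CPM divides by scaled unit totals. Fold changes are relative within a library, since no external standard was used here. Replicate libraries differed by more than sampling noise (chi-square per unit 2.72 to 65.8).

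Members, gene lists and tests were chosen with earlier results of these data known. Every plus-strand window is named. Minus-strand windows over the genes and after NEAT1, and ChIP upstream of the genes, are not compared here. From the 3 gene lists, the 3 highest and 3 lowest called units in TT-Seq versus Total RNA-Frag-Seq are named, with NONO, SFPQ, SRSF1, SRRM2, SON and ELAC2, and for each RNA the 5 named units with the most similar levels. One further item of this rule is not reported here. Promoter sequences are from RefSeq, GRCh38.p14. Alternatives were other scalings and filters, DESeq2, single comparisons, left-out replicates, a replicate block, other window lengths and pseudocounts. The annotated gene ends, the ChIP counts divided by 2 and the ChIP totals over all bins were added after seeing the data.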

Additional observations from a re-analysis of the deposited data

Results flagged for a closer look

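For 10 results, the effect of purification differed between sheared and unsheared RNA by a test of the difference itself (TT-Seq versus Total RNA-Frag-Seq, minus 4sU-Seq against Total RNA-Seq, in log2). The same test called 34.6% of all rows for window levels, 17.9% for the ratio after 3.8 kb and 8.41% for the downstream ratio. In NEAT1 the difference was -1.24 over the whole span (adjusted p = 1.05e-08, edgeR), -1.11 in the first 3.8 kb (adjusted p = 6.02e-08) and -1.25 after it (adjusted p = 1.95e-08). In MALAT1 it was -0.91 over the whole span (adjusted p = 2.38e-05), -0.52 in the first 3.8 kb (adjusted p = 0.0133) and -1.56 after it (adjusted p = 4.30e-09), while the 10 kb downstream on the plus strand gave 1.4 (adjusted p = 0.000839). For MALAT1's ratio of the stretch after 3.8 kb to the first 3.8 kb it was -1.04 (adjusted p = 0.00567, limma). For the ratio of the 4 kb downstream to the last 4 kb it was 1.51 in NEAT1 (adjusted p = 0.0215) and 2.96 in MALAT1 (adjusted p = 2.22e-06). The first 3.8 kb of MALAT1 and the NEAT1 downstream ratio lost their calls without any of several single libraries. With 2 libraries a group, no group was tested for a sample far from the others.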

How the results depend on the processing

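Of 77 results on the windows and ratios, 62 were called, and 53 of these kept their direction and their call in every alternative run. Over all rows the share called ran from 0.0241% for the downstream ratio in unpurified RNA to 81.0% for TT-Seq versus Total RNA-Frag-Seq. The count of 62 is thus not read as a trait of the pair. Scaling moved all values of a comparison together: without TMM the shift was log2 0.34 for TT-Seq versus Total RNA-Frag-Seq, 0.14 for 4sU-Seq against Total RNA-Seq, -0.14 for Total RNA-Frag-Seq versus Total RNA-Seq and -0.63 for S2P against N20. Under it, or with totals over all bins, the whole NEAT1 span in 4sU-Seq against Total RNA-Seq was 0.00299 or -0.00444, and the first 3.8 kb of NEAT1 in Total RNA-Frag-Seq versus Total RNA-Seq was -0.0142 or -0.000799. The interaction in MALAT1's first 3.8 kb was -0.32 or -0.28 (-0.39 with DESeq2's size factors), no longer called. S2P against N20 after 3.8 kb of MALAT1 was -0.0103 without TMM. In Total RNA-Frag-Seq versus Total RNA-Seq the whole MALAT1 span was called at -0.27 with DESeq2's size factors or its Wald test, -0.32 without TMM, -0.31 with all-bin totals and -0.22 with only its own libraries. S2P against N20 at the NEAT1 start was called at -1.58 without TMM and -0.90 with DESeq2. The NEAT1 ratio after 3.8 kb in TT-Seq against 4sU-Seq was -0.19 with a first part of 3 kb. The interaction of the downstream ratio was not called with a pseudocount of 0.1 (1.64 for NEAT1, 2.98 for MALAT1) or, for NEAT1, with windows of 2 kb (1.74), and the NEAT1 downstream ratio in TT-Seq against 4sU-Seq was called at 0.75 with annotated gene ends. The causes were not tested.

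Leaving out 1 replicate gave ranges of -0.28 to -0.11 for the whole NEAT1 span in 4sU-Seq against Total RNA-Seq, 0.17 to 0.37 for it in Total RNA-Frag-Seq versus Total RNA-Seq, -0.053 to 0.19 for its first 3.8 kb there, -1.59 to -0.48 for its start in ChIP, -0.53 to -0.41 for the MALAT1 ratio after 3.8 kb in 4sU-Seq against Total RNA-Seq and 1.27 to 1.74 for the NEAT1 downstream interaction. A lone library was then assumed to vary like the other groups. With a replicate block, S2P against N20 at the NEAT1 start was called at -1.02 and the NEAT1 downstream ratio in TT-Seq against 4sU-Seq at 0.75, and so were the first 3.8 kb of NEAT1 in ChIP (-0.79) and of MALAT1 in Total RNA-Frag-Seq versus Total RNA-Seq (-0.30). The block changed no other call. Replicate numbers did not pair the libraries (correlations 0.003 to 0.099 for RNA, -0.077 for ChIP).

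Counts of units called varied more: 4265 in Total RNA-Frag-Seq versus Total RNA-Seq became 2388 without Total RNA-Frag-Seq replicate 2, and 8229 in ChIP became 4815 without N20 replicate 1 and 12227 without TMM. For the ratio after 3.8 kb in Total RNA-Frag-Seq versus Total RNA-Seq, 373 became 1 without Total RNA-Frag-Seq replicate 1. A pseudocount of 0.1 took the downstream ratio's 7234 units in TT-Seq versus Total RNA-Frag-Seq to 3812 and the interaction's 1043 to 2. Depth limits the flanks, where unpurified libraries hold few counts.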
